A study of Mus musculus with 2 samples.

Results

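The 32 genes described here encode the working parts of the lysosome: 4 proteins of its membrane, 11 hydrolases and other proteins of its lumen, 15 core subunits of the proton pump that acidifies it (7 of the V0 sector and 8 of the V1 sector), and 2 accessory proteins of the pump. They were listed by symbol and by function, and the set was proposed with earlier results of these data known, so its shares are given as a description. In the deposited list of Usp39 binding peaks, 19 of the 32 genes were named for at least 1 peak, and 22 had at least 1 peak overlapping the gene body by 1 base or more. The background was the 21938 protein-coding genes of the mouse annotation, and, for peaks, every peak of the list. For positions within transcripts it was every pair of a peak and a protein-coding gene that the peak overlapped.

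RNA held by Usp39 was pulled down and sequenced (RIP-seq) in AML12 cells, a mouse hepatocyte line kept in medium with dexamethasone. Usp39, which belongs to the tri-snRNP particle of the spliceosome, was expressed with a FLAG tag from a doxycycline-induced vector, so the bait was tagged and overexpressed in a single cell line. There were 2 groups of 1 library each: Input, without antibody, and IP, with anti-FLAG magnetic beads. Both shared the line, the vector, 72 h of doxycycline and 5 min of paraformaldehyde. The study's methods place the paraformaldehyde on nuclear pellets, whereas the labels place it before the isolation of nuclei. The deposited values are 1 list of peaks and 1 table of the number of peaks per gene, and neither names a library.

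These limits bear on every value that follows. No read count of either library was at hand, so the depth is unknown, and a gene with a strong or weak transcript could not be told apart from one that was more or less enriched over Input. The list runs over the chromosomes in 2 passes of 17990 peaks each, which the sources do not explain. The study describes independent repeats of the assay, but 1 library per group is described in the labels, and the sources used here do not say whether the list pools repeats. No test was therefore run, and shares stand beside the same share over all genes, all peaks or all pairs of a peak and a gene. Intervals on shares are 95% intervals and cover counting error only, since peaks of one gene share a transcript. Among 13 hepatocyte markers only the keratins Krt18 and Krt8 were overlapped by a peak, with none for Alb, Ttr or Apoa1. Vim alone was overlapped among 8 mesenchymal markers, and 0 of 8 immune and 0 of 6 endothelial markers were. A list of peaks does not give expression, so it cannot show whether the other marker genes were transcribed.

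The lysosome is the acid compartment in which cells break down proteins, lipids and sugars delivered by endocytosis and autophagy. Its lumen is kept acid by the vacuolar H+-ATPase, a rotary pump in which the cytosolic V1 sector hydrolyses ATP and the membrane-bound V0 sector carries protons across the membrane. In hepatocytes, fusion of autophagosomes with lysosomes is one of the routes by which stored lipid droplets are degraded. Most of the enzymes inside work best at low pH.

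The sequences under 8 peaks were chosen to show peaks at splice sites and peaks within introns: an internal exon with both of its splice sites, an exon with one of them, or plain intron. They do not stand for the shares of the list, since 5 of the 8 hold a splice site, against 17 of the 103 peaks inside a principal transcript, and peaks in 3′ UTRs, the largest class, appear only as windows of 30 bases further on. Each is 1 bin of 100 bases of the GRCm38 genome (the build also called mm10). It is written 5′ to 3′ on the strand of the overlapped gene at the head of its line. Exon bases of the principal transcript are in capitals and intron bases in lower case. The list itself gives no strand.

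Lamp1, exon 7 with both splice sites, chr8:13173601-13173700, plus strand: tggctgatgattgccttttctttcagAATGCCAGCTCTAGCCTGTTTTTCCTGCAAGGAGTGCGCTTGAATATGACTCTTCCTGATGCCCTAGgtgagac
Tcirg1, exon 3 with both splice sites, chr19:3904201-3904300, minus strand: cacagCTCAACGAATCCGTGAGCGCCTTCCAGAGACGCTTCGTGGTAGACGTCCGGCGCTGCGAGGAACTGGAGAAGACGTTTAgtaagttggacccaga
Psap, intron 4 into exon 5, chr10:60294501-60294600, plus strand: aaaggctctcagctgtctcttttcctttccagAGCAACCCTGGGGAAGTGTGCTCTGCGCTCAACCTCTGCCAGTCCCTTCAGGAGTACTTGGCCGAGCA
Ctsd, exon 7 into intron 7, chr7:142377001-142377100, minus strand: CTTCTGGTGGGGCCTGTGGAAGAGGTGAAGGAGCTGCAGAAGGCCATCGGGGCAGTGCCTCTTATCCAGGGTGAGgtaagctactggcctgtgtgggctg
Lamp2, exon 1 into intron 1, chrX:38456201-38456300, minus strand: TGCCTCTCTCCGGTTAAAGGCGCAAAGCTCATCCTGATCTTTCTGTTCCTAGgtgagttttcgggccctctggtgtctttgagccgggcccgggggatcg
Psap, intron 8, chr10:60297801-60297900, plus strand: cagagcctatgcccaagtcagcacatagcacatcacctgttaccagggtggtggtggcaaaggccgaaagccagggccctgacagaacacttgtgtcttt
Atp6v0a1, intron 5, chr11:101023501-101023600, plus strand: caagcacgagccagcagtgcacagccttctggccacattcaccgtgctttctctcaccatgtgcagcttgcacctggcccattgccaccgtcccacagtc
Ctsl, intron 2, chr13:64370001-64370100, minus strand: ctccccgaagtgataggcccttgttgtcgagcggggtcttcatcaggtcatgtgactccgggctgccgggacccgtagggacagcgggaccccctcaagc

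Peaks overlapped most of the lysosome and pump genes. Of the 32 genes, 22 were overlapped (68.8%, exact interval 50.0% to 83.9%), against 19.0% of 21938 protein-coding genes. By the names in the deposited list the share was 59.4% (40.6% to 76.3%), against 20.0%. With only peaks at a p-value of 1e-05 or less, where the p-value is the peak caller's own, 11 genes remained overlapped (34.4%, 18.6% to 53.2%), against 6.42%.

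The overlapped genes had a median length of 19.8 kb and the other 10 a median of 29.9 kb, while the median of all protein-coding genes was 17.4 kb. Among genes of under 10 kb, 4 of 7 were overlapped, against 11.1% of all protein-coding genes of that length. From 10 to 30 kb, 13 of 15 were overlapped (86.7%), against 19.2%. From 30 to 100 kb, 5 of 10 were, against 26.3%. In each of the 3 length classes the share of lysosome and pump genes lay above that of all genes. These classes hold only 7, 15 and 10 genes and their shares have no intervals, so the part of length was not tested.

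The shares of the pump and of the other genes were close. Of the 17 proton pump genes, 12 were overlapped (70.6%, 44.0% to 89.7%), and of the 15 genes for membrane and lumen proteins, 10 were (66.7%, 38.4% to 88.2%). By role, peaks overlapped 3 of 4 membrane genes, 7 of 11 hydrolase and lumen genes, 6 of 7 V0 genes, 5 of 8 V1 genes and 1 of 2 accessory genes, and the intervals of the 5 roles overlapped one another.

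**Figure D1:**
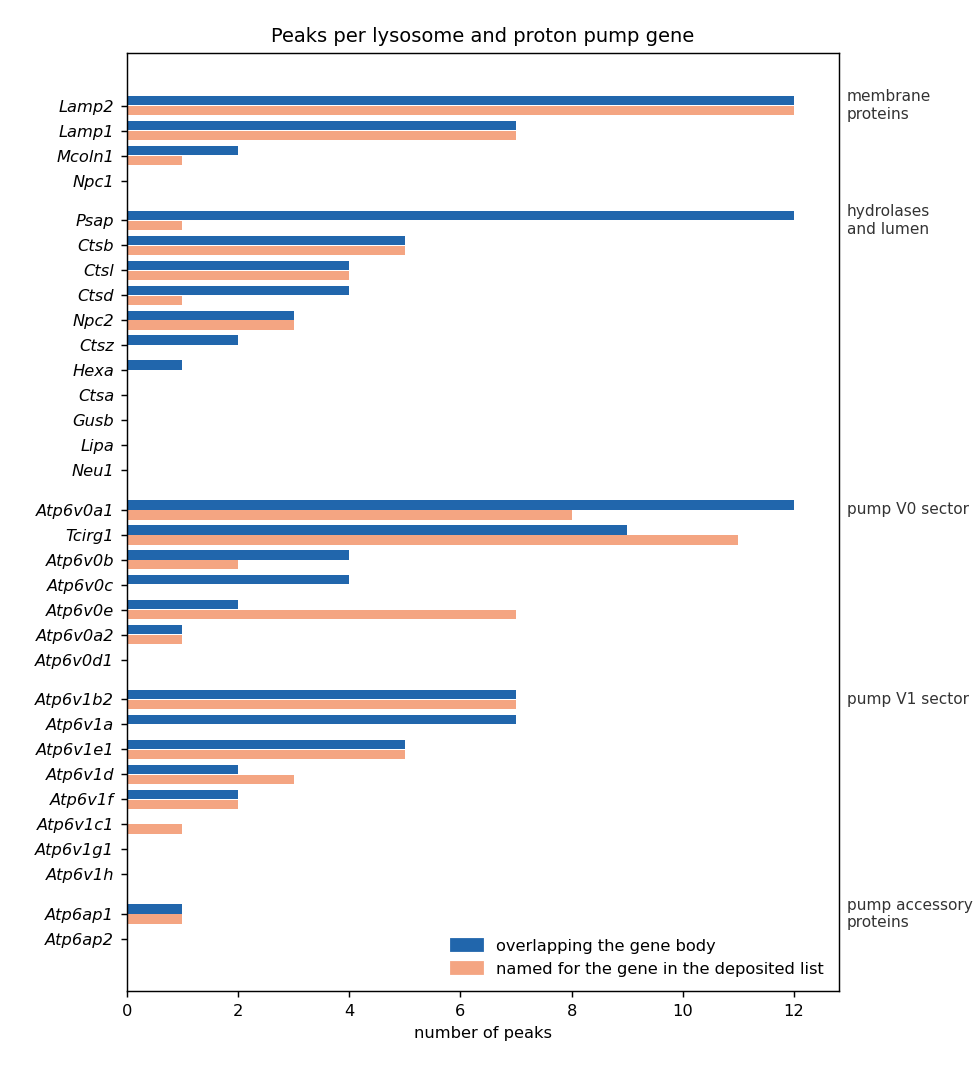
Number of peaks (horizontal axis) for each of the 32 genes, grouped by role, with blue bars for peaks that overlap the gene body and orange bars for peaks named for the gene in the deposited list. Lamp2, Psap and Atp6v0a1 had 12 overlapping peaks each, 10 genes had none, and the bars of a gene often differ in length because 39 of the 108 overlapping peaks carry the name of another gene.

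In number of peaks the genes were ordinary. Those with any overlapping peak had a median of 4 each, from 1 to 12, against a median of 3 over the 4179 overlapped protein-coding genes, whose highest was 778. A group of 7 genes (Lamp1, Lamp2, Psap, Tcirg1, Atp6v0a1, Atp6v1a and Atp6v1b2) held 66 of the 108 overlapping peaks. When peaks within 100 bases were joined, the 108 peaks formed 63 sites, and 32 of these had peaks from both passes (50.8%, 38.8% to 62.7%), against 48.9% of all 19774 sites. Peaks of both passes fell in 17 of the 22 overlapped genes. Atp6v1d and Mcoln1 had peaks of the first pass only, and Hexa, Atp6v0a2 and Atp6ap1 of the second pass only.

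The passes were offset from each other by the same median in these genes as in the whole list. The directions of the offset rest on 42 cases and are given without an interval, so no difference from the list is claimed. Of 59 first-pass peaks, 42 (71.2%) had a second-pass peak within 300 bases, against 72.5% of all first-pass peaks. The nearest second-pass peak started at a higher genome position in 31 of these 42 cases (73.8%), at the same position in 5 and at a lower one in 6. Over all peaks it was higher in 8175 of 13037 cases (62.7%), the same in 3046 and lower in 1816. The median offset was 100 bases in both. The shares of peaks that follow count the peaks of both passes separately, unless joined sites are named.

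The name of a peak and the gene it overlapped often differed. The named transcript had the nearest annotated start for 96 of the 108 overlapping peaks (88.9%), against 74.0% of all peaks with a matched transcript. Of the 82 peaks named for these genes, 69 overlapped the body of the named gene (84.1%, 74.7% to 90.5%), against 74.3% of all peaks. Conversely, 39 of the 108 overlapping peaks (36.1%) carried the name of another gene, and the deposited distance to that gene's transcript start was shorter than the distance to any start of the overlapped gene for 39 of 39. Overlapped but never named were 4 genes (Atp6v1a, Atp6v0c, Ctsz and Hexa), and 1 gene, Atp6v1c1, was named but not overlapped. In addition 13 of the 108 peaks also touched a second annotated gene, and without a strand the RNA of the pair cannot be told apart there.

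Among the membrane proteins, Lamp2, a heavily glycosylated protein of the lysosomal membrane that exists in several splice forms with different last exons, had 12 overlapping peaks, 6 in each pass. All 12 were named for it. On the principal transcript, 4 peaks lay in exon 9, which at 2345 bases is the longest and holds the 3′ UTR, 2 in intron 8, 2 in intron 6, and 1 across the end of exon 1 (the sequence printed above). The other 3 lay past the end of that transcript, at chrX:38411301-38411400, chrX:38411501-38411600 and chrX:38411601-38411700, between its last exon and those of the 2 other coding forms. These alternative last exons, of 510 and 925 bases, had 0 peaks. The strongest Lamp2 peak was one of the 3, with a p-value of 1.99e-05, and between 86% and 100% of the bases of each of the 3 were masked as repeats. Of the peaks in Lamp2, none reached 1e-05.

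Lamp1, the other major glycoprotein of that membrane, had 7 overlapping peaks, 5 in the first pass and 2 in the second, all named for it. Its strongest peak covered all 67 bases of exon 7 with both splice sites and had a p-value of 1.75e-09, the second smallest in the set. A second-pass peak of 200 bases started at the same position and reached exon 8, with a p-value of 9.42e-05. Peaks of 700 and 800 bases, one from each pass, covered most of exon 9 with the 3′ UTR, and the latter was the widest peak in the set. The remaining 3 lay in introns 1, 6 and 8. Exons 1 to 6 had no peak. Of the 7 peaks, 6 lay where Lamp1 overlaps Grtp1, a gene on the opposite strand, so they cannot be given to Lamp1 alone.

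Mcoln1, a cation channel that releases calcium from the lysosome, had 2 peaks in intron 12, at chr8:3513301-3513400 and chr8:3514601-3514700. Both stood at the weakest p-value of the list, 0.000736, and the second was named for the neighbouring gene Pnpla6. Npc1, which moves cholesterol out of the lysosome, had no peak.

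**Figure D2:**
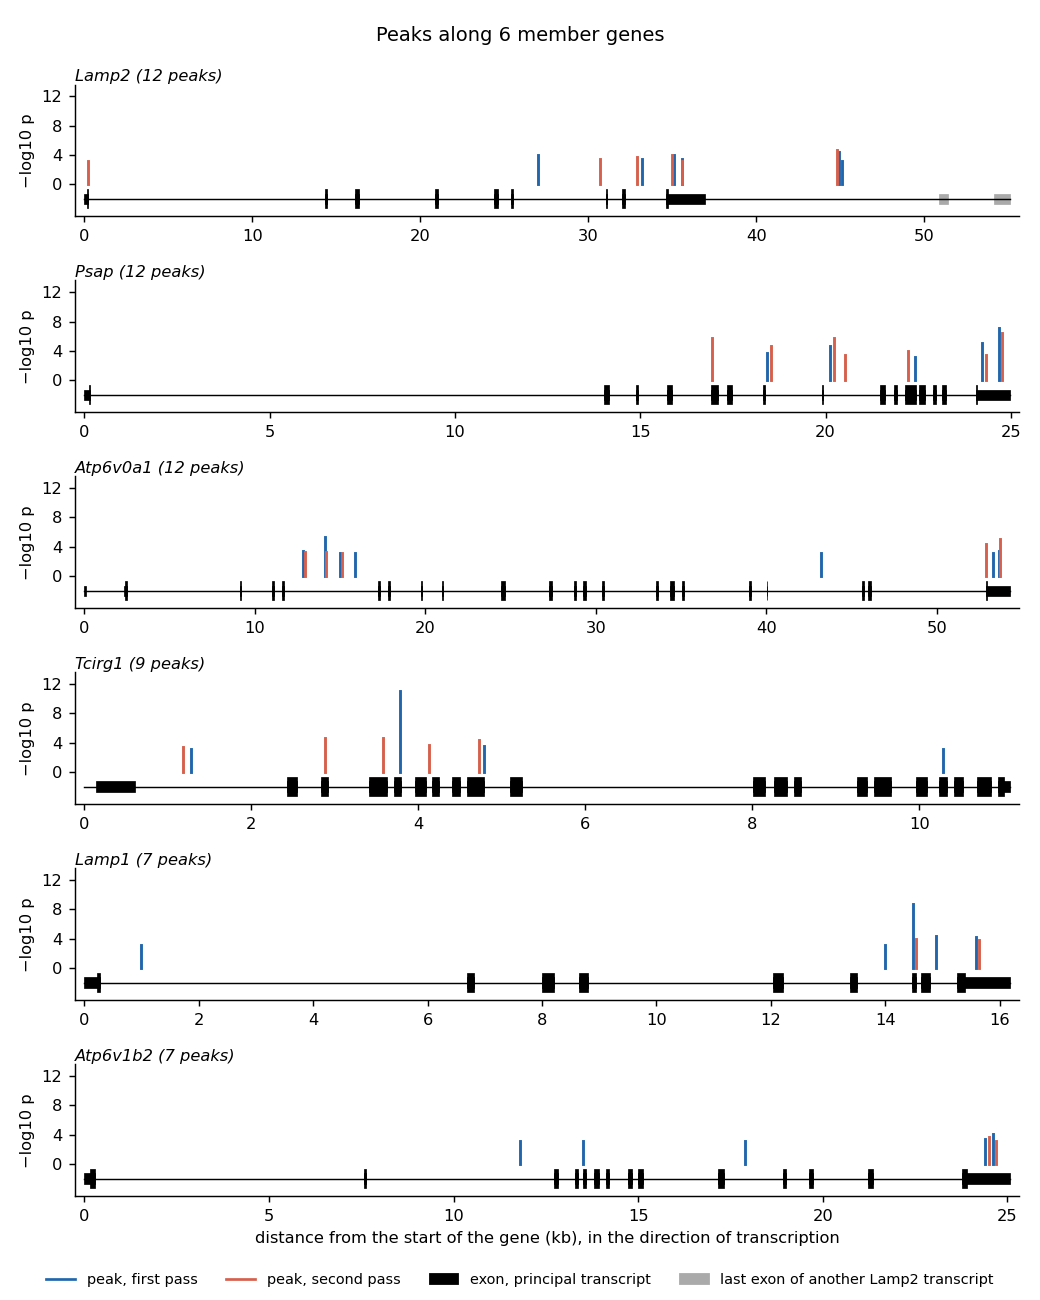
Peaks along Lamp2, Psap, Atp6v0a1, Tcirg1, Lamp1 and Atp6v1b2, with distance from the start of the gene in kb on the horizontal axis and −log10 of the deposited p-value on the vertical axis; lines are peaks (blue first pass, red second pass), black boxes are exons of the principal transcript, taller where coding, and grey boxes are last exons of other Lamp2 transcripts. The peaks of Psap, Lamp1 and Atp6v1b2 gather toward the 3′ end, those of Tcirg1 in the first part of the gene, and 7 of the 12 in Atp6v0a1 within intron 5.

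Among the lumen proteins, Psap had the most peaks. It encodes prosaposin, the precursor that is cut into the saposins, small activators of sphingolipid breakdown. There were 12 overlapping peaks, 5 in the first pass and 7 in the second, although only 1 of them was named for Psap and 11 carried the name of Cdh23, whose transcript starts lay nearer. Of the 12 peaks, 5 had a p-value of 1e-05 or less, the largest such number in the set. The strongest, with a p-value of 6.94e-08, lay in the 3′ UTR at chr10:60302201-60302400, and its neighbour in the second pass had 3.80e-07. Exon 15, with the 3′ UTR, held 4 of the 12.

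The other Psap peaks lay in exons and introns of the coding region. They touched exon 5 (1.75e-06), the end of exon 7 (0.000188), intron 7 (1.99e-05), intron 8 on 3 occasions (down to 1.75e-06) and exon 11 on 2. Exon 8, an exon of 9 bases that lies between introns 7 and 8, had no peak of its own: the nearest intron 8 peak started 156 bases beyond it. Exons 12 to 14 and intron 1, the longest intron at 13856 bases, had none.

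The cathepsins are the lysosomal proteases, and 4 of the 5 listed were overlapped. Ctsb had 5 peaks, all in the 3′ UTR of exon 10, which formed a single site of both passes, with a smallest p-value of 3.99e-06. Ctsd had 4, of which 3 were named for Ifitm10. The strongest covered 500 bases of the 3′ UTR at chr7:142376001-142376500 with a p-value of 2.18e-07, and the others lay in the same UTR, in exon 5 and across the end of exon 7. All 4 also touched Gm49369, a gene model that overlaps Ctsd. Ctsl had 2 peaks in the 3′ UTR and 2 in intron 2, and the intron peak of the second pass (printed above) was the strongest with 8.98e-06. Ctsz, a carboxypeptidase, had 2 adjoining peaks in the 3′ UTR, one from each pass, with p-values of 5.88e-08 and 1.39e-07, and both were named for Nelfcd, which ends there. Ctsa, the protective protein that also stabilises neuraminidase, had no peak.

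Npc2, the soluble carrier that hands cholesterol to Npc1, had 3 peaks, all in the 3′ UTR of exon 4, with widths of 200, 300 and 500 bases and a smallest p-value of 6.69e-05. Hexa, the alpha subunit of beta-hexosaminidase, had 1 peak at the weakest p-value of the list, in the 3′ UTR and named for Celf6. No peak overlapped Gusb, which cleaves glucuronides, Lipa, the acid lipase that hydrolyses cholesteryl esters and triglycerides, or Neu1, the lysosomal sialidase. Among the hydrolase and lumen genes, 19 of the 31 overlapping peaks lay in 3′ UTRs, against 17.0% of all pairs of a peak and a protein-coding gene.

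The V0 sector held the strongest peak of the set. Its a subunit, which anchors the pump and lines the proton path, is encoded by several genes, of which 3 are listed. Tcirg1, the a3 form, had 9 overlapping peaks, 4 in the first pass and 5 in the second, of the 11 named for it. The other 2 named peaks lay outside the gene and touched no gene. The strongest, at chr19:3903301-3903400, touched exon 5 and intron 5 and had a p-value of 7.77e-12, the smallest in the set and more than 2 units of −log10 p beyond the next. It came from the first pass, and no second-pass peak overlapped it. The nearest second-pass peak, at chr19:3903501-3903600 in exon 4, had a p-value of 1.99e-05.

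In Tcirg1, 7 of the 9 peaks touched coding exons, namely 3, 4, 5, 6, 7, 9 and 17 of 20, and the other 2 lay in intron 1. The 3′ UTR had none. The deposited classes for these exon peaks were mixed (3′ UTR for 4, promoter for 2, exon for 1), and the reason was not tested. Exon 3, of 79 bases, was covered whole with both splice sites by the peak printed above.

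Atp6v0a1, the a1 form, had 12 overlapping peaks, 7 in the first pass and 5 in the second, of which 8 were named for it and 4 for Naglu, a lysosomal glucosaminidase gene whose start lay nearer. Intron 5, of 5498 bases, held 7 of them and exon 22, with the 3′ UTR, held 4. The last lay in intron 19. The smallest p-value in intron 5 was 3.99e-06, in the first pass, while the second-pass peak that starts at the same position had 0.000557. The nearest splice site was 1019 bases or more from each of the 7 intron 5 peaks. Intron 21, which is longer at 6706 bases, had none wholly inside it, although the exon 22 peak at chr11:101062301-101062400 reached into its end. The 4 peaks named for Naglu all lay in exon 22 of Atp6v0a1, and no peak overlapped Naglu itself. Atp6v0a2, the a2 form and at 95.9 kb the longest gene of the set, had 1 peak, in intron 9, with a p-value of 0.000188.

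The proteolipid subunits form the rotating ring that carries protons. Atp6v0b, of 3.01 kb, had 4 peaks, a pair in the 3′ UTR named for B4galt2, with p-values of 0.000188 and 1.03e-08, and a pair in intron 1, with 4.29e-05 and 0.000377. The deposited class of the second pair was 5′ UTR. The pair in the 3′ UTR also touched Gm12841, an antisense gene model. Atp6v0c had 4 peaks in exon 3, all named for Amdhd2, with p-values of 4.29e-05 and 0.000188 in each pass.

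Atp6v0e, a small subunit of the same sector, showed how far names and positions could part. It was named for 7 peaks, and all 7 lay in the 3′ UTR of the neighbouring gene Ergic1. Another 2 peaks, named for Crebrf, did overlap Atp6v0e, in the last exon of transcripts that run beyond the principal one, with p-values of 0.000736 and 9.08e-05. Atp6v0d1, which couples the ring to the central stalk, had no peak.

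In the V1 sector peaks fell mostly in 3′ UTRs, with 17 of 23 there, against 17.0% of all pairs of a peak and a protein-coding gene. Atp6v1b2, the B subunit that forms the catalytic head together with Atp6v1a, had 7 peaks, all named for it. Of these, 4 lay side by side in the 3′ UTR of exon 14, alternating between passes, with a smallest p-value of 9.08e-05. The other 3, in exon 5, intron 2 and intron 10, came from the first pass only and all stood at the weakest p-value of the list.

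Atp6v1a, the A subunit that binds and hydrolyses ATP, also had 7 peaks, 4 in the first pass and 3 in the second, in the 3′ UTR of exon 15. None was named for it, since the start of Gramd1c lay nearer, so by name alone the gene would count as having no peak. Their p-values took only 2 values, 0.000188 and 0.000736. Atp6v1e1, of the outer stalk, had 4 peaks in the 3′ UTR and 1 in intron 7, with a smallest p-value of 4.29e-05. Atp6v1d, of the central stalk, had 2 peaks in its 3′ UTR and was named for 1 more, which lay in Mpp5.

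Atp6v1f, also of the central stalk, was named for 2 peaks that lay in exons of Flnc, while the 2 peaks that overlapped its own exon 2 were named for Atp6v1fnb and had p-values of 5.53e-05 and 3.99e-06. Atp6v1c1, a part of the stator, was named for 1 peak of the weakest p-value at chr15:38698901-38699000, in no gene. Atp6v1g1, of the outer stalk, and Atp6v1h, which controls the coupling of the sectors, had no peak, although Atp6v1h is 92.5 kb long. Of the accessory proteins, Atp6ap1 had 1 peak in intron 4 with a p-value of 8.98e-06, and Atp6ap2, also known as the prorenin receptor, had none.

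**Figure D3:**
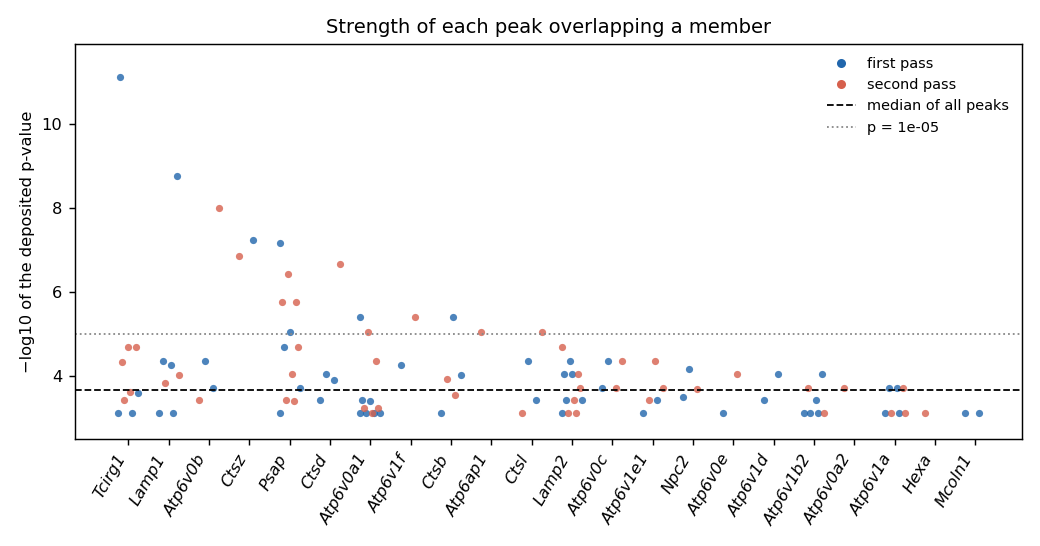
Strength of each of the 108 peaks that overlap 1 of the 22 genes, as −log10 of the deposited p-value (vertical axis), with genes in order of their strongest peak; the dashed line is the median of all peaks (3.68) and the dotted line a p-value of 1e-05. A single Tcirg1 peak stands at 11.1 and a single Lamp1 peak at 8.76, and most points lie near the median of all peaks.

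Peak strength was near that of the list as a whole. The median −log10 p was 3.73 for the overlapping peaks (quartiles 3.13 and 4.37) and 3.47 for the named peaks, against 3.68 for all peaks. Of the overlapping peaks 17 had a p-value of 1e-05 or less (15.7%, 10.1% to 23.8%), against 14.4% of all peaks, and 28 stood at the weakest p-value of the list (25.9%), against 25.8%. Single bins of 100 bases made up 78.7% of them, against 78.5%. The median GC content was 52%, against 49%, and on average 12.1% of a peak's bases were masked as repeats, against 18.2%.

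Close to 1 in 2 peaks touched a last exon. On the principal transcripts, 50 of the 108 overlapping peaks lay in 3′ UTRs (46.3%, Wilson interval 37.2% to 55.7%), against 17.0% of the 32179 pairs of a peak and a protein-coding gene. Introns held 32 (29.6%, 21.8% to 38.8%), against 50.03%. Coding exons held 21 (19.4%, 13.1% to 27.9%), against 24.2%, and 5′ UTRs held 0 (upper bound 3.43%). The last exon was touched by 54 peaks (50.0%, 40.7% to 59.3%), against 21.8%. By joined sites the last exon took 24 of 63 (38.1%, 27.1% to 50.4%), against 19.1%. When peaks within 100 bases were joined and each site took the class of its strongest peak, 22 of 63 sites lay in 3′ UTRs (34.9%, 24.3% to 47.2%), against 14.9% of 17922 sites in all protein-coding genes, and 25 in introns (39.7%, 28.5% to 52.0%), against 51.4%.

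The classes of the deposited list put 38 of the 82 named peaks in 3′ UTRs (46.3%, 36.0% to 57.1%), against 19.5% of all peaks, with 29.3% in introns, against 41.5%. Of these 38 peaks, 8 lay in other genes, 7 named for Atp6v0e and 1 for Atp6v1d, and 4 lay in coding exons of Tcirg1. On the principal transcript of the named gene the 3′ UTR share was 31.7%, with joined peaks it was 32.7%, and among the 7 named peaks at 1e-05 or less it was 14.3%.

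**Figure D4:**
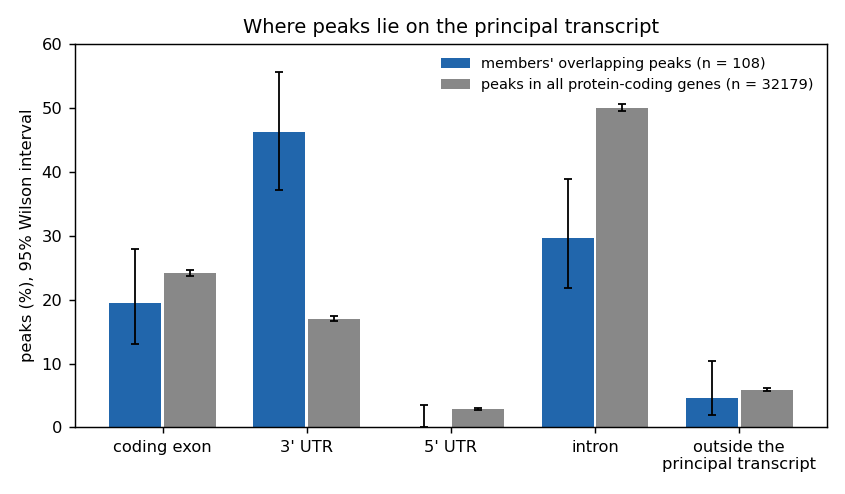
Share of peaks in each region of the principal transcript (vertical axis, percent), for the 108 peaks that overlap the lysosome and pump genes (blue) and for the 32179 pairs of a peak and a protein-coding gene (grey), with 95% Wilson intervals that cover counting error only. The 3′ UTR bar of the lysosome and pump genes stands at 46.3% against 17.0%, and their intron bar at 29.6% against 50.03%.

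The same was seen gene by gene. A peak touched the last exon in 17 of the 22 overlapped genes (77.3%, 54.6% to 92.2%), against 53.4% of 4179 overlapped protein-coding genes, while the median 3′ UTR was 827 bases in the former and 1082 in the latter. A 3′ UTR peak was present in 16 genes, an intron peak in 12 and a coding exon peak in 9. For 6 genes (Ctsb, Ctsz, Hexa, Npc2, Atp6v1a and Atp6v1d) every overlapping peak lay in the 3′ UTR. Apart from the last exon, these counts of genes have no share of all protein-coding genes beside them, so they are description only. The peaks lay at a median of 2138 bases from the 3′ end of the principal transcript, against 12265 bases for peaks in all protein-coding genes, and 37 of the 103 peaks inside that transcript were within 1 kb of it (35.9%, 27.3% to 45.5%), against 12.4%. Counted once per peak, the median length of the overlapped gene was 25.0 kb for the lysosome and pump genes and 50.7 kb for all protein-coding genes, and the part of gene length in these shares was not tested.

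By role, the number of 3′ UTR peaks was 17 of 23 in the V1 sector and 19 of 31 in the hydrolase and lumen genes, but 6 of 21 in the membrane genes and 8 of 32 in the V0 sector, where 13 lay in introns and 9 in coding exons. These counts rest on few genes: Tcirg1 and Atp6v0a1 alone held 21 of the 32 V0 peaks, and Lamp2 held 12 of the 21 membrane peaks. Of the 17 V1 peaks in 3′ UTRs, Atp6v1a held 7, and Atp6v1b2 and Atp6v1e1 held 4 each.

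Splice sites are where the tri-snRNP works, so the distance of each peak to the nearest one was measured. Of the 103 peaks inside a principal transcript, 17 held a splice site (16.5%, 10.6% to 24.9%), against 11.2% of 30285 such pairs of a peak and a protein-coding gene. Within 100 bases of a splice site lay 28 (27.2%, 19.5% to 36.5%), against 22.3%. Both values for all genes lay inside the intervals.

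The hexamers GGCCAC and GCCATA, which the study names as motifs of the assay, were searched on the strand of the overlapped gene. For all peaks the strand of the named gene was read instead, or the plus strand where the name was not matched. The strand rules of the compared shares therefore differ, except where either strand was allowed. GGCCAC was present in 5 of the 108 overlapping peaks (4.63%, 1.99% to 10.4%), against 4.95% of all peaks, and GCCATA in 4 (3.70%, 1.45% to 9.14%), against 2.10%. In single-bin peaks of 100 bases the shares were 4.71% and 2.35%, against 3.40% and 1.45%. With either strand allowed the shares were 12.0% and 7.41%, against 9.62% and 4.45%. All shares on the strand of the gene and in single bins held the value of all peaks within their intervals. The hexamers cannot overlap each other on the same strand. The sites below, shown with the hexamer in capitals in a window of 30 bases, are those in Atp6v0a1, Tcirg1, Atp6v1e1, Ctsb, Npc2 and Ctsl, and the remaining site was in the second Mcoln1 peak.

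Atp6v0a1, intron 5, in peaks of both passes, chr11:101023519-101023548: gcacagccttctGGCCACattcaccgtgct
Tcirg1, exon 5, in the strongest peak of the set, chr19:3903347-3903376: caggcacccgggGGCCACattcagacctga
Atp6v1e1, 3′ UTR, chr6:120795546-120795575: tgtcaacagcagGGCCACttggtgtgggca
Atp6v1e1, 3′ UTR, same peak, chr6:120795504-120795533: cagctcatctgaGGCCACagctgttcactg
Ctsb, 3′ UTR, in its strongest peak, chr14:63142611-63142640: gtggctctgcctGCCATAcctcccaccccc
Npc2, 3′ UTR, in peaks of both passes, chr12:84757019-84757048: aatggaatcagtGCCATAtgatgaacagaa
Ctsl, intron 2, chr13:64369954-64369983: gctccttgtgccGCCATAacattcgcgggc

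Each window is a match of letters and does not show a site of contact. The Atp6v0a1 and Tcirg1 windows fell in the strongest peaks of these genes, while Lamp1, Ctsz, Psap, Ctsd and Atp6v0b, whose strongest peaks ranked next after that of Tcirg1, had neither hexamer on the gene's strand.

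The rest of the lysosomal system was read from 6 further lists. Of their 106 genes, 32 were overlapped (30.2%, 21.7% to 39.9%), against 19.0% of protein-coding genes, and 35 were named (33.0%). Of 9 pump subunits known mainly from particular tissues, such as the kidney, none was named or overlapped (0 of 9, upper bound 33.6%). Of 11 assembly factors and regulators of the pump, 4 were overlapped, and Oxr1, with 173 named peaks, Dmxl1, with 10, and Wdr7, with 3, had the most. Other hydrolases were overlapped in 9 of 36 cases, led by Asah1, which cleaves ceramide, with 8 named and 5 overlapping peaks. Galns, with 4 named peaks, stood level with Naglu, whose 4 lay in Atp6v0a1.

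Other membrane proteins of the lysosome were overlapped in 7 of 22 cases, with Tmem106b at 24 named peaks, Laptm4b at 7 and the cystine transporter Ctns at 6. Of 10 genes that sort enzymes to the lysosome, 5 were overlapped. Igf2r, the cation-independent mannose 6-phosphate receptor, had 199 named and 120 overlapping peaks, followed by Grn with 5 and Gga1 with 2. Of 18 genes for the TFEB family of transcription factors and its control by nutrients, 7 were overlapped, led by Fnip1 with 7 named peaks, Fnip2 with 6 and Flcn with 5, while Tfeb, Tfe3, Mitf and Tfec had none.

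**Figure D5:**
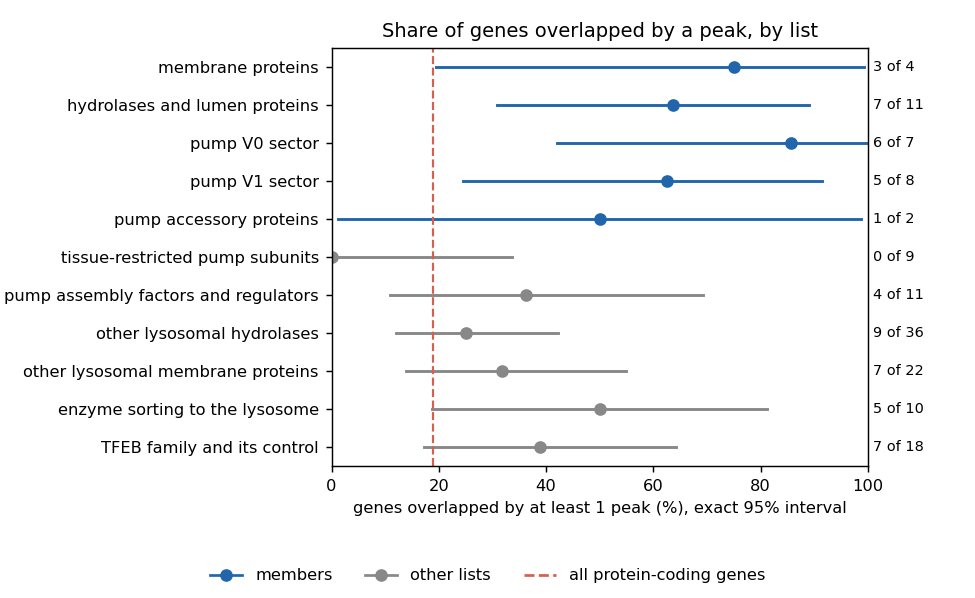
Share of genes overlapped by at least 1 peak (horizontal axis, percent) for the 5 roles of the lysosome and pump genes (blue) and 6 further lists (grey), with exact 95% intervals and the counts at the right; the dashed line is the share of all protein-coding genes, 19.0%. The V0 sector stands highest with 6 of 7, and the tissue-restricted pump subunits lowest with 0 of 9.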

How the data were processed

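RIP-seq peaks of FLAG-Usp39 in AML12 cells were analysed. Per the labels and the study's methods, trimming used Trim Galore (version 0.6.1), quality control FastQC (version 0.11.9), filtering of ribosomal RNA Bowtie (version 1.2.3) and mapping to mm10 HISAT2. Peaks were called with Piranha (p-value limit 0.001, 100-base bins), with clusterProfiler for their annotation, and HOMER is also listed. The sources used here do not give the version of HISAT2 or whether Input entered the calls. The authors deposited 1 p-value per peak, unadjusted as far as stated, and 1 count of peaks, not of reads, per gene. The depth is unknown. Positions, widths and distances to transcript starts were taken as deposited, and the annotation column was used for its location classes.

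Members and lists were chosen with earlier results of these data known. Peaks were set against GENCODE M21 and the GRCm38 sequence with Python (version 3.11.15), pysam (version 0.24.0) and scipy (version 1.17.1). All 35980 peaks lay within the chromosomes, and for 35588 the named transcript had the same identifier and version, each with the deposited distance to its start within 1 base. An overlap needed 1 base. The principal transcript was the coding transcript with the best APPRIS tag, with ties broken by the longest coding sequence. A peak in it was classed by the region that took most of its exon bases, or as intron where no exon was touched. For 83 peaks of 17 genes the name was not matched to the annotation. Shares of genes have exact Clopper-Pearson and shares of peaks Wilson intervals at 95%.

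All 32 members were named, with positions for those with at least 5 named or overlapping peaks. Other genes were named where they share a peak with a member or were among up to 3 genes of a list with the most named peaks. One gene that this rule takes is not reported here. Marker genes, and those without a peak in the last list, were picked after their values were seen. Alternatives were a limit of 1e-05, joining peaks within 100 bases, each pass alone, equal weight per member, at least 2 peaks per gene, single bins, either strand and the own overlap annotation, and those on overlapping peaks were added after seeing the data. The placement of peaks was tested on simulated data, where 200 of 200 genes and 586 of 586 peaks were recovered. Each simulated peak lay wholly inside an internal coding exon or an intron, in genes that did not overlap. Placement in UTRs, in last exons, across splice sites or in overlapping genes was therefore not tested.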

Additional observations from a re-analysis of the deposited data

How the results depend on the processing

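Of the values recomputed under alternatives, 36 stayed near the reported value (counts within 1.5 times, shares and the median within the 95% interval of the reported value) and 16 moved. With only peaks at a p-value of 1e-05 or less, 7 of the 19 named genes remained, with 7 named peaks in place of 82, and the deposited classes of those 7 were 42.9% exon and 14.3% 3′ UTR, with 100% in the body of the named gene. By overlap, 11 of 22 genes remained at that limit, and the 3′ UTR share of their peaks was 52.9%. Joining peaks within 100 bases left 52 named peaks and a 3′ UTR share of 32.7%. The first pass alone held 46 named peaks and the second 36. Equal weight per gene gave 20.5% in introns and 25.0% in exons. When the named gene's own principal transcript replaced the deposited classes, 80.5% of named peaks lay in exons, UTRs or introns, in place of 91.5%, and 31.7% in 3′ UTRs. The share with GGCCAC or GCCATA went from 9.76% to 18.3% with either strand. Leaving out Lamp2, Psap and Atp6v0a1, the 3′ UTR share of overlapping peaks was 54.2%, and with peaks within 100 bases joined it was 34.9%.

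No paired analysis was possible because each group had 1 library and the peaks name no library. Without read counts no value was set against Input, transcript level or depth. The p-values take few steps, so peaks at the same step have no order.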
